A study of Homo sapiens with 12 samples.

Results

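Collagens, laminins and integrins, the proteins that build the extracellular matrix and fasten cells to it, were followed as transcripts in NS-SV-AC, an immortalised human salivary gland acinar cell line. Members were all genes whose names follow the numbered pattern of these families: collagen chains (COL), laminin chains (LAMA, LAMB, LAMC), integrin alpha chains with a number and ITGAV, and integrin beta chains. The pattern matched 76 of the 60609 annotated genes. A gene counted as expressed with a TPM (the length-scaled share of a library's transcripts, summed over those of the gene) of 1 or more in at least 2 libraries, and 43 of the 76 passed: 21 of 44 collagens, 8 of 12 laminins, 8 of 12 integrin alpha chains and 6 of 8 integrin beta chains. A member can pass this filter through the groups in which it is high, so the 43 are not the whole family.

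Polyadenylated RNA of 12 libraries was sequenced, in 6 groups of 2 replicates. All groups were NS-SV-AC cells, and the labels name no engineered allele, which does not show that the immortalised line carries none. The groups DMSO depc, 2-CM depc and RES depc received the transfection labelled depc, without poly I:C, and the groups DMSO poly I:C, 2-CM poly I:C and RES poly I:C were transfected with poly I:C, a man-made mimic of the double-stranded RNA of viruses, with 14 h in the labels. 2-CM (2'-C-methyladenosine, a nucleoside analogue) and RES (resveratrol, a plant polyphenol) were given at a labelled dose of 20 μm, 24 h ahead of the transfection and once more together with it, and the DMSO groups received an equal volume of solvent. The labels name no separate cultures, so p-values measure the spread between these libraries, which may be technical.

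Collagen chains assemble in groups of like or unlike chains into triple helices, and laminins join an alpha, a beta and a gamma chain into a cross-shaped molecule. Type IV collagen and the laminins form the networks of the basement membrane on which glandular epithelium rests, while fibrillar collagens of types I, III and V give tissue its tensile strength. Integrins are receptors of an alpha and a beta chain that bind these ligands outside the cell and link them to the actin or keratin cytoskeleton inside.

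The stretches just upstream of 4 members are printed because the data below turn on pairs that share a promoter or a receptor yet differed in their values: COL4A1 and COL4A2 start back to back on chromosome 13, and ITGA5 and ITGB1 together form the fibronectin receptor. Each is from GRCh38, 5′ to 3′, with the matches to GGGCGG (the GC box) and CCAAT on either strand in capitals. The first is the 126 bases between the starts of the main COL4A1 and COL4A2 transcripts (chr13:110307158-110307283, plus strand), in which 2 minor transcripts have an exon. The other 2 are the 250 bases before the main transcript start of ITGA5 (chr12:54419267-54419516, minus strand) and of ITGB1 (chr10:32958231-32958480, minus strand).
COL4A1-COL4A2: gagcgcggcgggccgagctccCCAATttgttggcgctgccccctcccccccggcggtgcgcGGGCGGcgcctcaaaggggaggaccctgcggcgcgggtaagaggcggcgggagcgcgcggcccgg
ITGA5: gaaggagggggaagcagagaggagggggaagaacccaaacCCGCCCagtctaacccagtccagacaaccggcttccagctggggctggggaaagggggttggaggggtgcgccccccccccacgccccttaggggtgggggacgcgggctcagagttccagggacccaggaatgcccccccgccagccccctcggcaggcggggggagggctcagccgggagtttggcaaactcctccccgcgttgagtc
ITGB1: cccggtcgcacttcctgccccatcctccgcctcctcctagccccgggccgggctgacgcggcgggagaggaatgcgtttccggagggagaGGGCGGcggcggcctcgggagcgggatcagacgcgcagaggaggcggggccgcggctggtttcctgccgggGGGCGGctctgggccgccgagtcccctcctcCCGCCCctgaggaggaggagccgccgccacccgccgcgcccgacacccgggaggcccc

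Windows of 300 bases around the gene start (250 before, 50 after), from RefSeq on GRCh38.p14, were found for 30 of the 43 expressed members. That of LAMA3 lies 183577 bases from its main transcript's start, at another start of the gene, and holds GGGCGG and TGANTCA. Their GC content ran from 49.3% to 86.7%, with a median of 71.7%. GGGCGG stood on either strand in 24 of the 30 windows, and in 44.6% of 27305 windows, the first listed for each gene, expressed or not. The members' windows were instead those nearest to the start of the main transcript, so the sets compared are unlike. CCAAT stood in 16.7% against 35.7%, TATAAA in 2 of the 30 against 3264 of the 27305, the AP-1 motif TGANTCA in 6.7% against 7.8%, and GAAANNGAAA, a repeat bound by interferon regulatory factors, in 0.0% against 3.6%. The window of COL4A2 held GGGCGG and CCAAT, that of ITGA5 held GGGCGG and TGANTCA, and that of ITGB1 held GGGCGG alone among these motifs. A match is a run of letters and not a shown binding site.

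Libraries held 31.2 to 49.4 M estimated reads on annotated transcripts. The cell type was checked against marker genes: of 8 salivary acinar markers, 6 (AQP5, MUC7, PRB1, HTN1, STATH and CST1) were listed at 0 in all 12 libraries, and AMY1A reached 0.0463 TPM. BHLHA15 reached 2.69 TPM and was the only 1 to pass the filter, so the acinar markers other than BHLHA15 were at or near 0. KRT8 and KRT18, keratins of simple epithelium, lay at 466 TPM or more in every library, KRT5 and KRT14 were listed at 0, and EPCAM and CDH1 stayed at or under 1.23 TPM. Of 8 fibroblast and mesenchymal markers, 5 were expressed (VIM at 386 to 819 TPM, ACTA2 at 13.5 to 28.6 TPM, PDGFRB at up to 11.0 TPM, LUM at 1.88 to 32.5 TPM and DCN at 0.584 to 18.0 TPM), and PDGFRA, THY1 and POSTN stayed under 1 TPM. Of 5 leukocyte markers, PTPRC and CD3E were listed at 0, and CD68 and ITGAM passed the filter, at up to 8.80 and 1.35 TPM. The summed epithelial markers were at 1683 to 3532 TPM in the depc libraries and 1099 to 1733 TPM in the poly I:C libraries, and the part of cell state in the results below was not tested. Replicates of a group differed along the GC content of the members' main transcripts: the correlation of GC content with the log2 difference of replicate 1 and replicate 2 ran from -0.89 to -0.70 in 5 groups and was 0.87 in RES poly I:C, over 43 members that share their libraries. Less RNA per cell and fewer cells of a kind cannot be told apart in these bulk libraries.

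Among collagens, the levels, which TPM sets per transcript length, were led by COL18A1 with a mean over the 12 libraries of 139 TPM, COL6A1 with 125 TPM, COL6A2 with 119 TPM and COL1A1 with 49.0 TPM. COL18A1 encodes the basement membrane collagen from which endostatin is cut, and COL6A1 and COL6A2 are chains of beaded microfibrils. Some chains that usually assemble with abundant ones were at or near 0. COL1A2, the partner of COL1A1 in type I collagen, was listed at 0 in 11 of 12 libraries and at 0.0193 TPM in the other. COL6A3, the large chain of type VI collagen, had a mean of 0.0322 TPM. In type IV collagen, COL4A3 and COL4A4 had means of 0.0340 and 0.0835 TPM, while COL4A1, COL4A2, COL4A5 and COL4A6 were expressed at means of 12.1, 41.2, 7.22 and 3.41 TPM. COL9A1, COL21A1, COL5A3, COL6A5 and COL20A1 were listed at 0 in all 12 libraries.

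Laminins were led by LAMB1 (mean 55.5 TPM), LAMB2 (52.6 TPM), LAMC1 (46.0 TPM), LAMA5 (37.1 TPM) and LAMA1 (30.5 TPM), which are the chains of laminin-111, laminin-511 and laminin-521. LAMA3 and LAMB3, chains of the laminin that anchors hemidesmosomes in layered epithelia, were low. LAMA3 had a mean of 4.13 TPM, and LAMB3 ran from 0.0605 to 0.477 TPM. The long LAMA3 transcript ENST00000313654.13 held 82.9% to 96.7% of LAMA3 TPM. Among integrins, ITGB1, the common beta chain of the laminin, collagen and fibronectin receptors, had a mean of 174 TPM, followed by ITGA3 (86.5 TPM, laminin receptor), ITGA5 (59.5 TPM, fibronectin receptor), ITGB5 (33.3 TPM, vitronectin receptor) and ITGA7 (22.4 TPM, laminin receptor). ITGB6 was listed at 0 in 11 of 12 libraries. Of the 43 expressed members, 22 had a mean of 10 TPM or more and 18 a mean under 5 TPM. Nearest to the filter, ITGB8 passed with a mean of 0.715 TPM, and LAMA4 did not with a mean of 0.601 TPM, since it reached 1 TPM in 1 library. Summed over the expressed members, collagens stood at 838 to 1019.7 TPM in the depc libraries and 376 to 519.9 TPM in the poly I:C libraries, laminins at 239 to 363 against 121 to 221 TPM, and integrin alpha chains at 229 to 273 against 106 to 148 TPM, with no overlap between the transfections. Integrin beta chains overlapped, at 109 to 273 against 103 to 394 TPM. Single chains did not all go with these sums. Under 2-CM 7 of 21 collagens and 4 of 8 laminins had a positive poly I:C value, with medians of -0.48 and -0.09. With median-of-ratios scaling 4 and 0 were positive, with medians of -1.05 and -0.73. The integrin alpha sum is mostly ITGA3, ITGA5 and ITGA7, and single alpha chains went other ways: under 2-CM 5 of 8 had a positive poly I:C value, with a median log2 fold change of 1.06, and in the average over compounds 5 of 8, with a median of 0.18. This direction turned with a correction for GC content, described further on, after which 2 of 8 were positive under 2-CM (ITGAV at 0.45 and ITGA4 at 0.06), with a median of -0.41, and 0 of 8 in the average, with a median of -0.41.

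**Figure D1:**
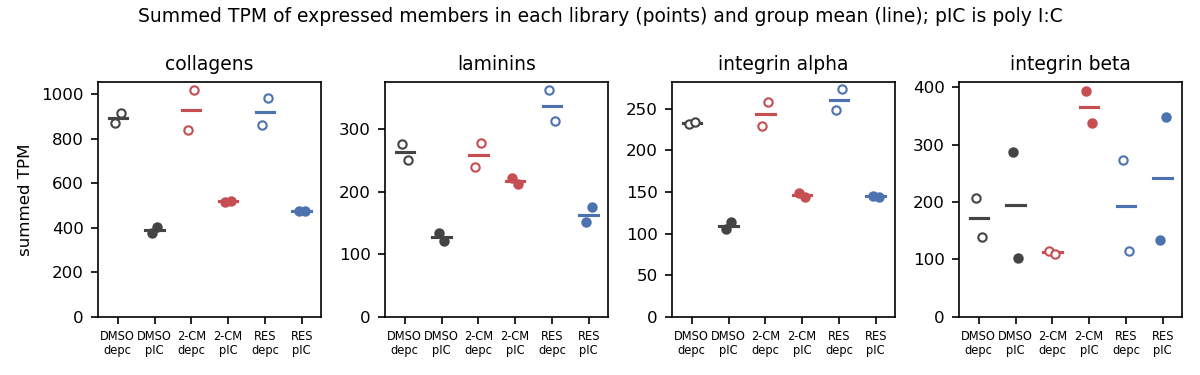
Summed TPM (vertical axis) of the expressed members of each family in every library, by group (horizontal axis, pIC for poly I:C). Points are libraries, open for depc and filled for poly I:C, and lines are group means of 2 replicates. The sums of collagens, laminins and integrin alpha chains lay lower with poly I:C under each compound, while the integrin beta sum, mostly ITGB1, ran from 103 to 394 TPM with wide gaps between the replicates under DMSO and RES.

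In the cells given solvent alone, some collagens, laminin chains and integrin alpha chains fell with poly I:C, led by COL1A1 and COL5A1, and no member passed as higher. Of 43 members, 13 were called lower (limma, Benjamini-Hochberg adjusted p under 0.05 over all 17185 genes tested) and 0 higher, where 4.08% of all genes were called, 3.28% lower and 0.797% higher. The called members were 7 of 21 collagens, 3 of 8 laminins and 3 of 8 integrin alpha chains, and none of 6 integrin beta chains. The median log2 fold change was -0.70 over the members and -0.14 over all genes, a gap of -0.57, and 2 members, ITGA1 and ITGB1, had a positive value.

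COL1A1 (ENSG00000108821.13, chr17:50183289-50201632, minus strand), the main chain of type I collagen, stood at 64.6 and 70.8 TPM after depc, against 15.9 and 17.7 TPM after poly I:C. The groups did not overlap, and the mean TPM of COL1A1 fell 4.04-fold, with a fitted log2(TPM + 1) change of -1.95 (SE 0.17, adjusted p 0.00144). COL5A1 (ENSG00000130635.15, chr9:134641774-134844843, plus strand), a chain of type V collagen that starts fibrils, stood at 73.7 and 71.8 TPM after depc, against 18.6 and 21.6 TPM after poly I:C, all well apart. Its mean TPM fell 3.61-fold, with a fitted change of -1.81 (SE 0.17, adjusted p 0.00191). COL26A1 (ENSG00000160963.14, chr7:101362875-101559024, plus strand), a little-studied collagen with an EMI domain, fell from 42.3 and 48.0 TPM to 13.7 and 18.3 TPM, with a log2 change of -1.45 (SE 0.22, adjusted p 0.0181). COL18A1 (ENSG00000182871.16, chr21:45405165-45513720, plus strand), which overlaps SLC19A1 on the opposite strand, fell from 199 and 231 TPM to 70.1 and 93.5 TPM, a change of -1.39 (SE 0.23, adjusted p 0.0223). COL4A2 (ENSG00000134871.19, chr13:110305812-110513209, plus strand), the minor chain of the common type IV collagen, fell from 54.8 and 58.7 TPM to 20.2 and 23.2 TPM, a change of -1.35 (SE 0.18, adjusted p 0.0104). In each of these 5 collagens, named because they were called, both poly I:C libraries lay below both depc libraries, which is no separate evidence. The other collagens called lower were COL6A1 and COL16A1. COL6A1 (ENSG00000142156.14, chr21:45981737-46005050, plus strand) went from 137 and 157 TPM to 59.8 and 72.6 TPM (-1.14, SE 0.20, adjusted p 0.028). Its neighbour COL6A2 (ENSG00000142173.15, chr21:46098097-46132849, plus strand) was at 100.7 and 124 TPM against 60.2 and 75.9 TPM and was not called.

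The laminin chains that fell were LAMA1, LAMA5 and LAMB2. LAMB2 (ENSG00000172037.14, chr3:49121114-49133118, minus strand), the beta chain of laminin-521, was at 55.1 and 62.3 TPM with depc and 24.3 and 27.7 TPM with poly I:C. Its log2 fold change was -1.14 (SE 0.21, adjusted p 0.0295). LAMA5 (ENSG00000130702.15, chr20:62307955-62367312, minus strand), the main alpha chain of adult epithelial basement membranes, was at 46.1 TPM in both depc libraries, against 18.1 and 22.9 TPM after poly I:C, a change of -1.14 (SE 0.22, adjusted p 0.0358). LAMA5 overlaps ADRM1 on the opposite strand, at a mean of 343 TPM, and the counting was not stated to use strand, so its values are uncertain. LAMB1 was at 71.6 and 59.1 TPM and then at 36.4 and 29.2 TPM, and LAMC1 at 51.7 and 44.1 TPM and then at 33.7 and 24.2 TPM. Neither passed, with log2 fold changes of -0.97 and -0.72.

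Among receptors, ITGA3 (ENSG00000005884.18, chr17:50055968-50090481, plus strand) stood at 110.2 and 116 TPM with depc and 44.5 and 59.3 TPM with poly I:C, and ITGA5 (ENSG00000161638.11, chr12:54395261-54419266, minus strand) at 73.8 and 84.5 TPM against 29.6 and 36.2 TPM. The log2 fold changes were -1.12 (SE 0.21, adjusted p 0.0323) and -1.24 (SE 0.19, adjusted p 0.0181). ITGA7, at a mean of 20.7 TPM (SD 0.363, n = 2) against 11.3 TPM (SD 0.971, n = 2), fell by 0.82 (SE 0.19, adjusted p 0.0495), and it overlaps BLOC1S1 on the opposite strand at 196 TPM. Their shared partner ITGB1 (ENSG00000150093.19, chr10:32900318-33005792, minus strand) stood at 155 and 88.7 TPM after depc, against 258 and 70.5 TPM after poly I:C. The ITGB1 groups overlapped, and the value was 0.20 (SE 0.75). ITGB5 was at 46.7 and 45.2 TPM against 26.6 and 29.7 TPM and missed the threshold (-0.69, adjusted p 0.054). COL1A1 and COL5A1 kept their calls without any of the 12 libraries, while the count of members fell to 2 or 3 without any DMSO library or either 2-CM poly I:C library, and to 6 without either 2-CM depc library. Median-of-ratios scaling and a fit of the 4 DMSO libraries alone each left 0 members called, with 22 and 20 at an unadjusted p under 0.05, FPKM left 2, upper-quartile scaling 3 and voom 5, and a GC correction gave 22, all lower. Over all genes, median-of-ratios scaling called 29 lower and the DMSO libraries alone 0. FPKM called 42 of 15093 lower, and upper-quartile scaling 42 and voom 132 of 17185. In the fit on TPM 25 members and 19.7% of all genes had an unadjusted p under 0.05. The GC-corrected fit called 2874 of 17170 genes, 1681 lower and 1193 higher. Over all genes the called split moved from 137 higher and 564 lower to 98 and 29 under median-of-ratios scaling.

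**Figure D2:**
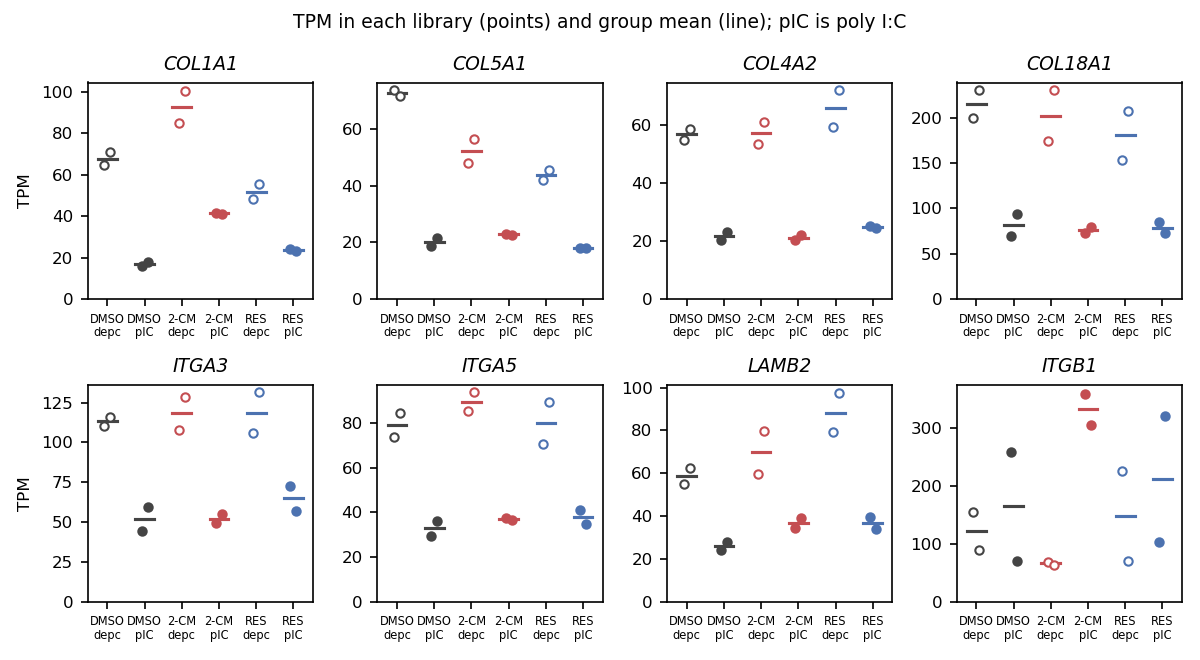
TPM (vertical axis) of 8 members in every library, by group (horizontal axis, pIC for poly I:C). Points are libraries, open for depc and filled for poly I:C, and lines are group means of 2 replicates. COL1A1, COL5A1, COL4A2, COL18A1, ITGA3, ITGA5 and LAMB2 lay lower with poly I:C under every compound, and ITGB1 ran from 63.5 to 359 TPM with replicates far apart in 4 of the 6 groups.

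Under 2-CM, members went both ways with poly I:C. Of 43 members, 16 fell and 5 rose, where 49.3% of all genes were called, 11.8% lower and 37.5% higher. The members that fell were 10 collagens, LAMB2, 3 integrin alpha and 2 integrin beta chains, and those that rose were ITGB1, ITGA4, ITGA1, COL12A1 and ITGB8. Over all genes the median was 0.61 in TPM and 0.03 after median-of-ratios scaling. The members' median of -0.33 was 0.95 lower than that of all genes, and with median-of-ratios scaling 25 members were called lower and 2 higher, with upper-quartile scaling 22 and 2, the 2 being ITGB1 and ITGA4. Over all genes 23.5% were called lower and 20.3% higher with median-of-ratios scaling, against 19.8% and 24.3% with upper-quartile scaling. With only the 2-CM libraries 17 members were called lower and 12 higher, beside 16.4% and 52.5% of all genes, and with no filter on low values 9 and 0, beside 0.565% and 1.04%.

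COL4A2 levels were 53.5 and 60.9 TPM after depc, against 20.3 and 22.1 TPM after poly I:C. These groups lay apart, with a log2 change of -1.39 (SE 0.18, adjusted p 0.00769). COL18A1 was at 175 and 230.1 TPM against 73.3 and 79.8 TPM (-1.38, SE 0.23, adjusted p 0.0201), COL26A1 at 33.7 and 41.6 TPM against 14.3 and 16.1 TPM (-1.25, SE 0.22, adjusted p 0.0237), and COL6A2, a chain of type VI collagen, at 133 and 173 TPM against 61.2 and 68.7 TPM (-1.21, SE 0.24, adjusted p 0.0247). COL1A1 fell from 84.9 and 100.3 TPM to 41.6 and 41.2 TPM, or 2.24-fold. ITGA5 fell from 85.6 and 94.0 TPM to 37.4 and 36.8 TPM (-1.25, SE 0.19, adjusted p 0.0158). ITGA3 fell from 108 and 129 TPM to 49.2 and 55.0 TPM, and LAMB2 from 59.8 and 79.6 TPM to 34.2 and 38.9 TPM. None of these 8 members had a poly I:C library as high as a depc library. They were named because they were called lower, so this is no separate evidence.

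ITGB1 stood at 68.7 and 63.5 TPM with 2-CM depc and 359 and 305 TPM with 2-CM poly I:C. Its mean TPM rose 5.02-fold, with a fitted change of 2.31 (SE 0.75, adjusted p 0.0367). ITGA4, the alpha chain of the VCAM-1 receptor, rose from 1.37 and 1.02 TPM to 7.40 and 5.83 TPM (1.79, SE 0.57, adjusted p 0.0345). ITGA1, a collagen receptor chain, rose from 0.715 and 0.337 TPM to 2.85 and 2.30 TPM (1.23, SE 0.41, adjusted p 0.0387). COL12A1, a collagen on the surface of fibrils, rose from 2.83 and 3.79 TPM to 8.94 and 7.03 TPM (1.06, SE 0.34, adjusted p 0.0345). Its value was 0.08 after a GC correction (adjusted p 0.819) and 0.04 in the authors' deposited table (adjusted p 0.909). ITGB8, a receptor chain for latent TGF-beta, rose from 0.357 and 0.295 TPM to 2.24 and 1.17 TPM (1.00, SE 0.35, adjusted p 0.0418). The 5 members that rose are low in GC, at 38.7% to 46.3% of the main transcript, and the 16 that fell are higher, at 54.6% to 67.2%. Of 5 tested fibroblast markers, DCN (means of 4.19 and 17.9 TPM) and LUM (3.73 and 30.6 TPM) were also higher with poly I:C under 2-CM, where 37.5% of all genes were called higher. The median log2 fold change of the 5 markers was 0.23, against 0.61 for all genes, and their part in these results was not tested.

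The receptor chain ITGAV was at 5.87 and 2.98 TPM against 27.6 and 20.0 TPM and missed the threshold at 2.23 (SE 0.83, adjusted p 0.0518). LAMB1 was at 52.9 and 60.4 TPM against 71.9 and 60.4 TPM, and LAMC1 at 42.6 and 43.6 TPM against 50.8 and 46.6 TPM, with values of 0.22 and 0.17 that did not pass. Without any 1 of the 4 2-CM libraries no member was called, and without any other library 15 to 24 were. After a GC correction 15.5% of all genes were called lower and 13.6% higher. Of the members 21 were then called lower and 0 higher: 13 of the 16 kept the call, and none of the 5 that rose did. ITGA1 turned to -0.52 and was called lower (adjusted p 0.0474), and ITGB8 turned to -0.75 without a call (adjusted p 0.0654).

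Under RES, 4 members fell with poly I:C and none rose, where 0.442% of all genes were called, 0.244% lower and 0.198% higher. LAMA5 stood at 52.2 and 54.7 TPM with depc and 20.8 and 17.0 TPM with poly I:C, and COL4A2 at 59.3 and 72.1 TPM against 25.2 and 24.5 TPM. COL5A1 stood at 42.1 and 45.5 TPM against 17.9 and 18.1 TPM, and COL1A1 at 48.1 and 55.4 TPM against 24.0 and 23.4 TPM. Each of the 4, named because they were called, had both poly I:C libraries below both depc libraries, which is no separate evidence. Their log2 fold changes were -1.46 (SE 0.22, adjusted p 0.0372), -1.36 (SE 0.18, adjusted p 0.0214), -1.24 (SE 0.17, adjusted p 0.0257) and -1.09 (SE 0.17, adjusted p 0.0401). A further 22 members had an unadjusted p under 0.05, all of them with negative values. Of all genes, 2409 of 17185 had an unadjusted p under 0.05 here. LAMB2 was at 79.1 and 97.5 TPM against 39.4 and 33.8 TPM, with -1.25 and an adjusted p of 0.0502. ITGA5 was at 70.7 and 89.6 TPM against 41.2 and 34.9 TPM (-1.05, adjusted p 0.065), and ITGA3 at 106 and 132 TPM against 72.8 and 57.0 TPM (-0.86, adjusted p 0.146). LAMB1 was at 81.6 and 57.6 TPM against 36.2 and 48.8 TPM, and LAMC1 at 81.9 and 54.5 TPM against 32.3 and 45.4 TPM, without a call. For COL6A1 the levels were 157 and 189.5 TPM against 98.4 and 77.7 TPM, and for COL6A2 they were 176 and 240.1 TPM against 118 and 92.8 TPM. ITGA7 was at 38.0 and 43.2 TPM against 20.6 and 17.9 TPM (-1.04, adjusted p 0.0628). ITGB1 was at 225 and 69.7 TPM with depc and 103 and 321 TPM with poly I:C, so its groups overlapped. FPKM, upper-quartile and median-of-ratios scaling, voom and a fit of the RES libraries alone each left 0 members called, with 25, 23, 21, 23 and 14 at an unadjusted p under 0.05, and a GC correction gave 14, all lower, where 2.14% of all genes were called lower and 1.36% higher. Over all genes the alternatives other than the GC correction called 36, 38, 39, 57 and 0. With the replicate number as a block 2 members were called, and 39 of all genes. Without either DMSO poly I:C library 2 were called, without RES depc replicate 1 there was 1, and without any other library 0.

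**Figure D3:**
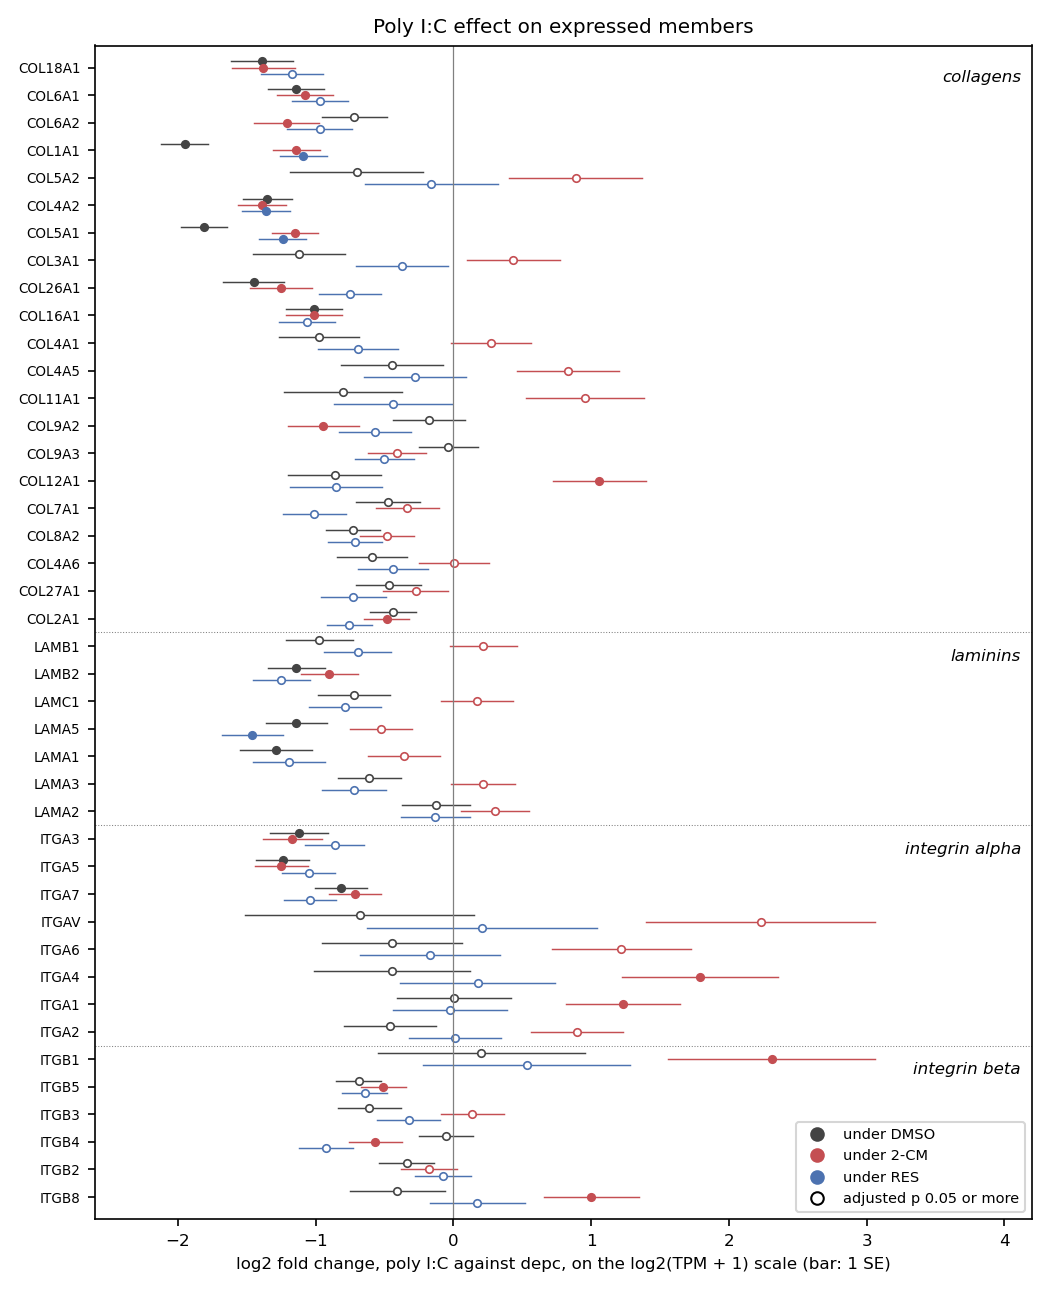
Log2 fold change of poly I:C against depc on the log2(TPM + 1) scale (horizontal axis) for the expressed members but 1 (vertical axis, by family and mean TPM), under DMSO, 2-CM and RES. Points are estimates, filled at an adjusted p under 0.05, and bars are 1 standard error. COL1A1, COL4A2 and COL5A1 were filled and negative under all 3 compounds, and the 5 filled positive points, led by ITGB1 at 2.31, all belong to 2-CM.

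The comparisons by compound share no library. They do share the estimate of the spread, from a fit of all 12 libraries, so their calls are not independent. COL1A1, COL4A2 and COL5A1 were called lower in all 3, and 9 members in exactly 2, as were 0.204% and 1.91% of all genes. With the replicate number as a block 2 members were called under RES, so not all of these 3 genes kept the call there. Of the members called lower under DMSO, 11 of 13 were also called lower under 2-CM, which is 11 of the 16 called lower there. Over all genes, 358 of the 564 called lower under DMSO were also among the 2035 called lower under 2-CM. In all 3 comparisons 24 of 43 members had a negative value, beside 24.9% of all genes. The average over the compounds used all 12 libraries and called 22 members lower and 0 higher, where 31.2% of all genes were called, 17.8% lower and 13.4% higher. They were 13 of 21 collagens, 4 of 8 laminins, 3 of 8 integrin alpha chains and 2 of 6 integrin beta chains, and 21 of the 22 were negative under each compound. COL5A1 and COL1A1 led, with averages of -1.40 and -1.39 (both SE 0.10, adjusted p 0.00012), followed by COL4A2 at -1.37, COL18A1 at -1.31 and ITGA5 at -1.18. Over all genes, 2307 were called higher and 3054 lower, a split that FPKM turned to 3900 and 2466. Of the 22 member calls, 19 held without any of the 12 libraries. LAMB1 lost it without any 1 of 8 libraries, and COL9A2 and COL27A1 each without any 1 of 7. The values of LAMB1 ran from -0.57 to -0.40 when each of the 12 libraries was left out.

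The log2 fold change of poly I:C with 2-CM or RES was then set against that with DMSO in the same fit. No member passed with limma for 2-CM or RES, where 0.0116% and 0% of all genes were called, and 18 and 3 members had an unadjusted p under 0.05, beside 29.7% and 1.7% of all genes. Voom and the GC correction also called 0 members, for either compound. For 2-CM the members' median difference was 0.59 and that of all genes 0.68. The sign turned with the scaling: these medians were -0.07 and 0.12 with upper-quartile and -0.28 and -0.07 with median-of-ratios scaling. The highest differences for 2-CM were 2.91 among integrin alpha chains and 2.105 among integrin beta chains, and neither passed. Of the collagens, COL12A1 differed by 1.92 (SE 0.47, adjusted p 0.161), COL3A1 by 1.56 (SE 0.47, adjusted p 0.161) and COL4A1 by 1.25 (SE 0.41, adjusted p 0.161). COL4A2 differed by -0.04 (SE 0.25) and ITGA5 by -0.01 (SE 0.27). COL1A1 had a difference of 0.82 for 2-CM (SE 0.24, adjusted p 0.161) and of 0.86 for RES (SE 0.24, adjusted p 1.00). A miss of the threshold does not show that these responses were alike.

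Compounds were also compared with DMSO within a transfection. These comparisons share the DMSO libraries. With depc, limma and voom called 0 members for 2-CM and limma gave 3 an unadjusted p under 0.05 (4.84% of all genes), where 0.0349% of all genes were called, 0.00582% higher and 0.0291% lower. The 3 were COL1A1 at 0.44, COL5A1 at -0.47 and LAMA3 at -0.54, chosen here after their values were seen. With poly I:C, COL1A1 was the only member called for 2-CM, where 0.105% of all genes were called, 0.064% higher and 0.0407% lower. Its libraries stood at 15.9 and 17.7 TPM under DMSO and 41.6 and 41.2 TPM under 2-CM, 2.47-fold higher (1.26, SE 0.17, adjusted p 0.0446). The median of all genes in this comparison was 0.59, and the call was lost under each other scaling, at 0.94 with FPKM, 0.59 with upper-quartile and 0.50 with median-of-ratios scaling. With the replicate number as a block the call was lost too. It was also lost without any library except the RES depc ones, and kept after a GC correction, at 1.03 (adjusted p 0.0069). For RES with poly I:C, limma and voom called 0 members, limma gave 9 an unadjusted p under 0.05 (13.4% of all genes), and 0.157% of all genes were called, 0.0698% higher and 0.0873% lower. ITGB3, the beta chain of a vitronectin receptor, was at 1.47 and 1.56 TPM under DMSO and 4.73 and 5.24 TPM under RES in these libraries and missed the threshold (1.25, adjusted p 0.0776). After the GC correction it was called higher, at 1.03 (adjusted p 0.006) with poly I:C and 0.79 (adjusted p 0.011) with depc, beside 3.66% and 6.02% of all genes called higher.

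With depc, 3 members of low level (COL7A1, ITGB4 and COL2A1) were called higher under RES than under DMSO and 1 of moderate level, COL26A1, lower, where 1.03% of all genes were called, 0.838% higher and 0.192% lower. COL7A1 (ENSG00000114270.17, chr3:48564073-48595267, minus strand), which forms the anchoring fibrils below the basement membrane, stood at 2.78 and 3.09 TPM under DMSO and 9.44 and 9.86 TPM under RES. ITGB4 (ENSG00000132470.14, chr17:75721328-75757818, plus strand), the hemidesmosome receptor chain, stood at 0.782 and 0.808 TPM against 2.51 and 3.63 TPM. COL2A1 (ENSG00000139219.19, chr12:47972967-48004554, minus strand), the cartilage collagen, stood at 1.09 and 1.11 TPM against 2.64 and 3.26 TPM. The 3 rose by 1.44 (SE 0.23, adjusted p 0.0369), 1.17 (SE 0.20, adjusted p 0.0381) and 0.91 (SE 0.17, adjusted p 0.0474) in the fit, and the ratios of mean TPM were 3.29-fold, 3.86-fold and 2.68-fold. COL26A1 fell from 42.3 and 48.0 TPM to 16.9 and 21.3 TPM, a change of -1.21 (SE 0.22, adjusted p 0.0483). ITGB4 overlaps GALK1 on the opposite strand, at 168 TPM, so its level is uncertain. With poly I:C, where no member passed, COL7A1 stood at 1.58 and 2.09 TPM under DMSO and 4.32 and 4.28 TPM under RES (0.91, adjusted p 0.144), and ITGB4 at 0.752 and 0.702 TPM against 1.22 and 1.03 TPM (0.30). All 4 calls of RES with depc were lost with the replicate number as a block and without any 1 of the 12 libraries, with values of 1.38 to 1.49 for COL7A1 and -1.37 to -1.05 for COL26A1. They were also lost under the 3 other scalings, where no member was called, beside 46, 26 and 13 of all genes, and 13, 9 and 8 members had an unadjusted p under 0.05. In the fit on TPM 14 members and 14.7% of all genes had such a p. All 4 calls were kept after a GC correction, which called 8 members higher and 7 lower, beside 6.02% and 6.08% of all genes. Over all genes, 144 were called higher and 33 lower, against 6 and 7 with median-of-ratios scaling.

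**Figure D4:**
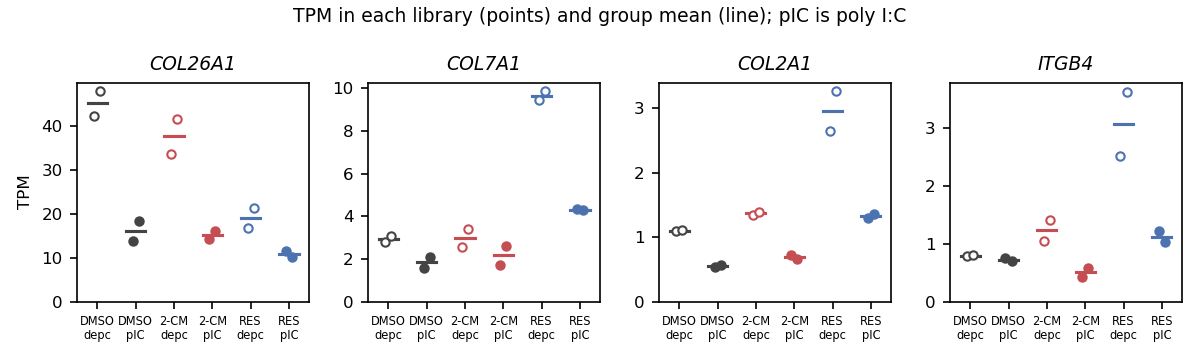
TPM (vertical axis) of the 4 members called for RES against DMSO with depc, in every library, by group (horizontal axis, pIC for poly I:C). Points are libraries, open for depc and filled for poly I:C, and lines are group means of 2 replicates. COL26A1 was lower in the RES depc libraries than in the DMSO depc libraries, and COL7A1, COL2A1 and ITGB4 were higher, with COL7A1 at 9.44 and 9.86 TPM.

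Chains that are built into the same molecule were set against each other as ratios of TPM within a library, given as a description. LAMB1 and LAMC1, which laminin-111 and laminin-511 share, kept a ratio of 0.996 to 1.41 over the 12 libraries, and COL6A1 and COL6A2 one of 0.789 to 1.39. Within that range COL6A1 to COL6A2 stood at 1.36 and 1.27 in DMSO depc, 0.994 and 0.956 in DMSO poly I:C and 0.888 and 0.789 in RES depc. The ratio of COL5A1 to COL5A2 ran from 0.291 to 1.84. The genes COL4A1 and COL4A2 start back to back, and the ratio of COL4A2 to COL4A1 was 3.34 and 4.37 in DMSO depc, 2.41 and 3.91 in DMSO poly I:C, 5.07 and 5.56 in 2-CM depc and 1.51 and 1.71 in 2-CM poly I:C. In RES depc it was 3.05 and 5.21, and in RES poly I:C 3.37 and 1.94, so there the groups overlapped. With 2-CM, COL4A1 was at 10.6 and 10.9 TPM after depc, against 13.4 and 12.9 TPM after poly I:C, a value of 0.27 that did not pass, while COL4A2 fell. The authors' deposited table for 2-CM had COL4A1 lower, at -0.57 (adjusted p 0.00428). Under DMSO, COL4A1 was at 16.4 and 13.4 TPM after depc, against 8.40 and 5.94 TPM after poly I:C, a value of -0.97 that did not pass. The ratio of ITGA5 to ITGB1 ran from 0.104 to 1.48. It was 1.25 and 1.48 in 2-CM depc and 0.104 and 0.121 in 2-CM poly I:C, while the replicates of RES depc were at 0.314 and 1.29. The main transcript of COL4A1 is 55.2% GC and that of COL4A2 61.8%, and for ITGB1 and ITGA5 these shares are 39.5% and 58.0%. The share of its main transcript ENST00000302278.8 in ITGB1 TPM ran from 39.4% to 98.1% between libraries.

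The GC content of the members' main transcripts went along with the poly I:C values, as a description over members that share libraries. Over the 43 members, Pearson's r came to -0.35 for DMSO, -0.87 for 2-CM and -0.73 for RES. A GC correction, in which each library's log2 values were set against a smooth curve of GC content over all genes, left the called members lower in most cases: 13 of 13 stayed called lower under DMSO, 13 of 16 under 2-CM, 4 of 4 under RES and 16 of 22 in the average. Over the 21 collagens the median under 2-CM went from -0.48, with 7 positive, to -0.01, with 10 positive. It went from -0.80 to -0.66 under DMSO and from -0.75 to -0.455 under RES. The laminin median under 2-CM went from -0.09 to -0.515. COL1A1 was then at -0.67 under 2-CM and -0.65 under RES, COL4A2 at -0.89, -0.91 and -0.91, and ITGA5 at -0.90, -0.99 and -0.70, all called. LAMB1 and LAMC1 had missed the threshold under each compound before it, with positive values under 2-CM. After it both were called lower under each compound, so their 2-CM values changed sign, and LAMB1 passed there at an adjusted p of 0.0499. LAMB1 was then at -0.95, -0.43 and -0.71, and LAMC1 at -0.71, -0.54 and -0.83. ITGB1 was at 0.15, 0.62 and 0.20 and was not called.

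**Figure D5:**
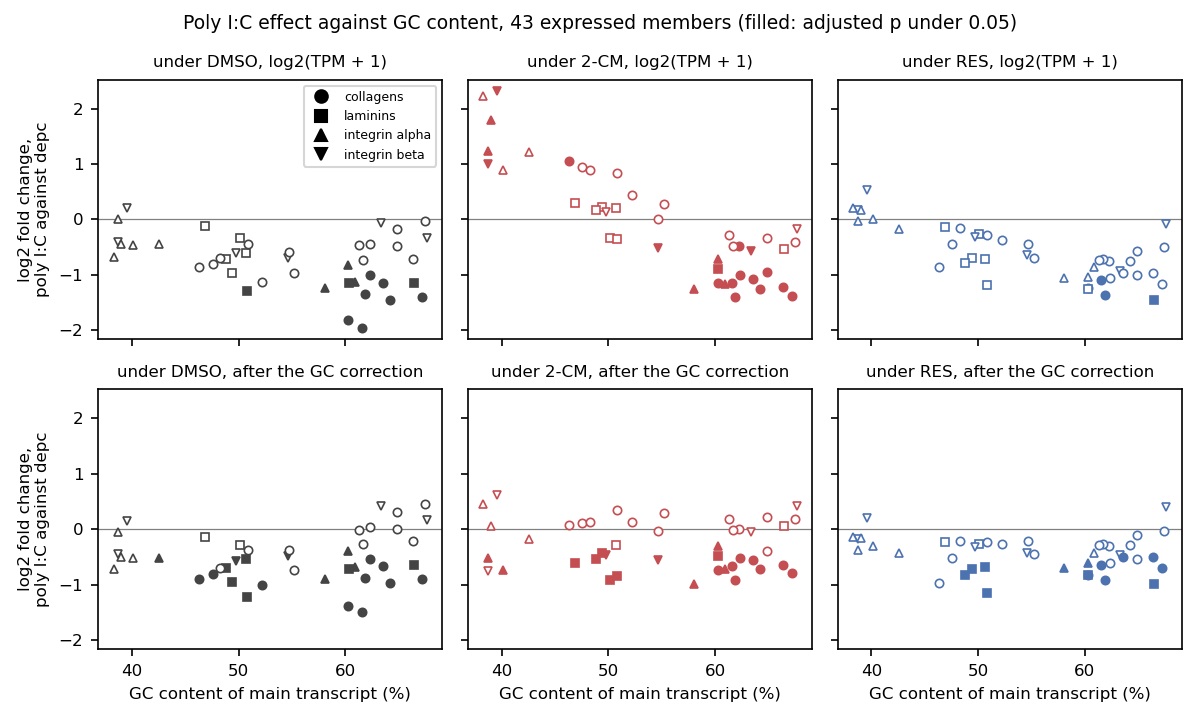
Log2 fold change of poly I:C against depc (vertical axis) and GC content of the main transcript in percent (horizontal axis) for the 43 expressed members, under DMSO, 2-CM and RES, before (top) and after (bottom) the GC correction. Symbols give the family and filled symbols an adjusted p under 0.05. Before the correction the 2-CM values run from positive at low to negative at high GC content (r = -0.87), and after it none of the filled symbols is positive.

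LAMA3 and LAMB3, the receptor chains ITGA6 and ITGB4, and COL17A1 belong to the hemidesmosome and its anchor. COL17A1, the transmembrane collagen of hemidesmosomes, was at or under 0.113 TPM in every library. LAMA3 stood at 5.18 and 4.24 TPM in DMSO depc, 3.14 and 2.36 TPM in DMSO poly I:C, 2.86 and 2.97 TPM in 2-CM depc, 3.47 and 3.61 TPM once poly I:C was added to it, 7.95 and 6.08 TPM in RES depc and 3.40 and 4.30 TPM in RES poly I:C. RES depc was thus its highest group. LAMA3 had no call on TPM, and after the GC correction it was called lower with poly I:C under DMSO (-0.55, adjusted p 0.0195) and under RES (-0.69, adjusted p 0.0216). ITGA6 ran from 1.17 to 7.02 TPM. Of the hemidesmosome list, which includes plaque proteins, 7 genes were tested and 3 were called lower in the average over compounds, where 17.8% of all genes were. PLEC, the plaque protein that ties the receptor to filaments, fell in all 3 comparisons by compound, by 1.85, 1.52 and 1.64 on the log2 scale (adjusted p 0.00715, 0.014 and 0.0254). With only the RES libraries no gene was called, so the RES call of PLEC was lost there. ITGB4 itself fell with poly I:C under 2-CM, from 1.05 and 1.41 TPM to 0.421 and 0.588 TPM (-0.57, SE 0.20, adjusted p 0.0415). That call was lost without any of 9 libraries and after the GC correction, at -0.05 (adjusted p 0.843).

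Other genes of the pathway came from lists of ligands, processing enzymes, proteases and adaptors, counted in the average over compounds beside 17.8% of all genes called lower and 13.4% higher. Under single compounds the shares of all genes are 3.28% lower and 0.797% higher with DMSO, 11.8% and 37.5% with 2-CM, and 0.244% and 0.198% with RES. Of 14 tested basement membrane and matrix partners, 10 were called lower and 0 higher, with a median of -0.51 against 0.16 for all genes. Under single compounds 5 were called lower with DMSO, 5 with 2-CM and 1 with RES. TNC, an adhesion-modulating glycoprotein, was lower from 1.39 to 0.321 TPM in group means under DMSO (-0.85, adjusted p 0.0284). Of 25 tested genes that modify, fold, cut or cross-link collagen, 15 were called lower and 0 higher in the average, while under 2-CM 13 were lower and 4 higher. With DMSO 4 of them were called lower and 0 higher, and with RES 0 were called. LOXL2, a cross-linking lysyl oxidase, was called lower under DMSO, from a mean of 92.8 to 47.4 TPM, and under 2-CM, with log2 fold changes of -0.96 and -1.18 (adjusted p 0.0243 and 0.0118). PLOD3 and P3H3, of the lysyl and prolyl hydroxylase families that modify collagen, and LOXL4 were also called lower in these comparisons. Of 14 tested matrix proteases and inhibitors, 4 were called lower and 1 higher in the average, and under 2-CM 4 were lower and 4 higher. With DMSO 2 of them were called lower and 0 higher, and with RES 0 were called. MMP2, a gelatinase that cuts type IV collagen, was lower under DMSO (-1.18, adjusted p 0.0193) and 2-CM (-1.05, adjusted p 0.0234). Of 27 tested integrin adaptors and focal adhesion genes, 15 were called lower and 2 higher, with 7, 10 and 3 lower and 0, 5 and 0 higher under DMSO, 2-CM and RES. FLNA and TLN1, which connect integrin tails to actin, were called lower under each compound: TLN1, for example, by 1.40, 1.15 and 1.16 on the log2 scale (adjusted p 0.0104, 0.0183 and 0.0418). Under RES 2 of all genes were called lower with upper-quartile scaling, 2 with median-of-ratios scaling and 0 with only the RES libraries. The RES calls of PLEC, FLNA and TLN1 therefore did not all hold with either scaling, and none held in the last.

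The authors' deposited tables give their own comparison of poly I:C with depc under each compound. At an adjusted p under 0.05, the authors' deposited table for DMSO held 2 members lower and 0 higher, COL1A1 at -1.89 and COL5A1 at -1.65, both called here as well. Of the 22224 genes with an adjusted p in that authors' deposited table, 0.499% were lower and 0.751% higher. The authors' deposited table for 2-CM held 30 lower and 6 higher, which took in all 16 members called lower here and 4 of the 5 called higher, all but COL12A1. Of 23551 genes in that authors' deposited table, 23.5% were lower and 23.0% higher. In the authors' deposited table for RES no member passed, where 82 of 22565 genes did. COL4A2, at -1.35, -1.39 and -1.36 on TPM under DMSO, 2-CM and RES, stood at -1.20, -2.34 and -1.42 in the authors' deposited tables. The methods and scales are unlike, so these sizes cannot be compared directly. The gap under 2-CM is not particular to COL4A2: COL1A1 was at -1.14 here and -2.06 there, and ITGB1 at 2.31 and 1.49. ITGB8 went the other way, at 1.00 here and 1.54 there.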

How the data were processed

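RNA of 12 NS-SV-AC libraries (6 groups of 2) was read from the polyadenylated fraction. The authors quantified transcripts of GENCODE 32 with StringTie 2.0.4, per the file headers, and deposited coverage, FPKM and TPM values for each transcript. The submitters' processing notes also name bcl2fastq 2.20, HISAT2 2.1.0, DESeq2 and the build hg38, and no strand option is given in the headers. The authors also deposited tables of log2 fold changes and p-values comparing poly I:C with depc for DMSO, 2-CM and RES, which are quoted only where named. Raw read counts per gene were not used here, so tests ran on TPM.

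TPM were summed per gene, and genes at 1 TPM or more in at least 2 libraries were kept (17185 of 60609). A limma 3.58.1 model (R 4.3.3, trended prior) of log2(TPM + 1) was fitted on all 12 libraries with 6 group means. Calls needed a Benjamini-Hochberg adjusted p under 0.05 over all genes tested. The added 1 makes log2 fold changes of low genes smaller than they are in TPM. Estimated reads are coverage times length over the read length.

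The members and lists were chosen with earlier results of these data known. Members chosen for naming were the 4 most abundant per family and called members (at most 5 in each direction of a comparison). Also chosen were the hemidesmosome chains with the laminin that anchors them, and COL4A1 with COL4A2. Not each is given with every library's value in every group: some stand as a group mean, a range or a name. Other members are given by counts or, where a result turns on them, by value. Genes of other lists were named if called in at least 2 of the 3 poly I:C comparisons. Named results of 3 genes are not reported here. The lists were marker lists of epithelial, acinar, mesenchymal, endothelial and leukocyte cells and pathway lists. Summed endothelial markers stayed at or under 2.00 TPM and leukocyte markers between 2.53 and 10.5 TPM.

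Alternatives were FPKM, upper-quartile and median-of-ratios scaling, no filter on low values, a minimum of 5 TPM, a pseudocount of 0.1, a replicate block, only the groups compared, voom on estimated reads, a GC correction and leaving out each library. Genomic letters were read from GRCh38, on which the 41 members with the same gene version in GENCODE 44 had the same position.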

Additional observations from a re-analysis of the deposited data

How the results depend on the processing

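Counts are of members called at an adjusted p under 0.05. For poly I:C under DMSO the count of 13 became 2 with FPKM, 3 with upper-quartile scaling, 0 with median-of-ratios scaling, 0 with only the groups compared, 5 with voom and 22 with the GC correction. Over all genes the count of 701 became 136, 138, 127, 6, 244 and 2874 in the same order. For poly I:C under 2-CM the count of 21 became 9 with no filter on low values, and that of all genes went from 8475 of 17185 to 649 of 40364. For poly I:C under RES the count of 4 became 0 with FPKM, upper-quartile scaling, median-of-ratios scaling, voom and only the groups compared, 7 with no filter, 8 with a minimum of 5 TPM and 14 with the GC correction. Over all genes the count of 76 became 36, 38, 39, 57, 0, 178, 125 and 602. The average over the compounds gave 20 to 29, with 22 before any change. Over all genes it gave 3689 (no filter) to 6366 (FPKM), with 5361 before any change. For RES against DMSO with depc the count of 4 became 0 with FPKM, both other scalings and only the groups compared, 1 with a minimum of 5 TPM, a pseudocount of 0.1 or voom, and 15 with the GC correction. Over all genes the count of 177 became 46, 26, 13, 0, 94, 118, 115 and 2077. For 2-CM against DMSO with poly I:C the count of 1 became 0 with FPKM, both other scalings, the pseudocount, voom and only the groups compared, and 3 with the GC correction, which called 841 of 17170 genes. Over all genes the count of 18 became 4, 4, 2, 10, 2 and 0 in the alternatives that called no member. For RES against DMSO with poly I:C the count of 0 became 5 with the GC correction, which called 1201 genes. Beside these counts of 0, 6 to 25 members had an unadjusted p under 0.05. In the fit on TPM before these changes, 13.4% to 34.2% of all genes had such a p in these comparisons. The 2 differences of the poly I:C response and 2-CM against DMSO with depc gave 0 under each of these alternatives. The cause of each change was not tested.

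Leaving out each library gave 2 to 14 calls for poly I:C under DMSO, 0 to 24 under 2-CM, 0 to 2 under RES, 19 to 24 in the average, 0 throughout for RES against DMSO with depc and 0 to 1 for 2-CM against DMSO with poly I:C. A left-out library leaves its group with 1 library, which is assumed to vary like the others. Of 65 member results, 3 reversed, all for poly I:C under 2-CM with the GC correction: ITGB8 at -0.75, COL2A1 at 0.010 and ITGA1 at -0.52.

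Replicate numbers are shared between groups. Replicate 1 deviated alike in the 5 groups other than RES poly I:C (correlations of 0.15 to 0.76) and opposite in RES poly I:C (-0.80 to -0.31). The labels do not say what a number marks, and 2 numbers a group do not settle a pairing. With the number as a block the counts were 10 for poly I:C under DMSO, 22 under 2-CM, 2 under RES, 22 in the average, 0 for RES against DMSO with depc and 0 for 2-CM against DMSO with poly I:C. With 2 libraries a group and levels under 5 TPM in 18 of the 43 members, the precision for low members is limited.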
